A study of Homo sapiens with 14 samples.

Results

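The 18S rRNA was examined along its whole length in the icSHAPE and icLASER profiles of K562 cells. It was taken as the row named 18S, which is 1 of the 12256 transcripts of the icSHAPE in vitro profile, 1 of 16295 in icSHAPE in vivo, 1 of 15853 in icLASER in vitro and 1 of 16648 in icLASER in vivo. K562 is an established human chronic myelogenous leukemia line, and the profiles listed 9 of 10 erythroid markers, with HBG1 the highest at an RPKM between 1225 and 2652. TAL1 was not listed. Of the markers of other blood cells, LYZ was listed at an RPKM between 10.6 and 31.4, and CD3E, MS4A1, CD14 and PTPRC were not listed.

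The in vivo groups were intact K562 cells exposed to a reagent, and the in vitro groups were K562 total RNA that was isolated, refolded outside of cells and then exposed. For icSHAPE the reagent was 100 mM NAI-N3 for 5 min, with 3 in vivo libraries, 2 in vitro libraries and 3 DMSO controls. For icLASER the reagent was NAz-N3 from a 1 M stock with 10 min of UV light, with 2 in vivo libraries, 2 in vitro libraries and 2 controls that the labels title No UV. The libraries of each reagent and condition were pooled with their controls into 1 profile, so each of the 4 profiles is a single measurement, replicates cannot be compared for any difference below, and no p-values are reported.

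NAI-N3 acylates the 2′-hydroxyl of flexible nucleotides, and NAz-N3, once activated by light, reacts with the C8 position of solvent-exposed purines. Both adducts stop reverse transcriptase and carry an azide through which the RNA is enriched. The 18S rRNA is the RNA of the small ribosomal subunit, which holds the mRNA and reads codons against tRNA anticodons. Its 5′ domain forms the body, its central domain the platform, its 3′ major domain the head, and its 3′ minor domain consists of the long helix 44 and the short helix 45. The decoding centre lies where the top of helix 44, the loop of helix 18 and helix 34 meet, and the central pseudoknot joins the domains.

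The sequence was read from RefSeq gene RNA18SN5 on GRCh38 (GL000220v1:109078-110946, plus strand), an exon that gives a 1869 nt RNA, the length of the deposited row. The copy RNA18SN1 is identical, and RNA18SN2, RNA18SN3 and RNA18SN4 each differ from it at 1 nucleotide, position 60. Reads of the copies that do not cover this position cannot be told apart. Positions below count from 1 at the 5′ end, and domain limits and sites were placed by conserved motifs, not by a deposited structure. The sequences of the decoding site and of the helices around it are shown because the nucleotides that meet the codon and the tRNAs lie in them. Capitals mark the named functional nucleotides: the guanosine of helix 18 that contacts the decoding minor groove, the A-site cytidine and the acetylated cytidine of helix 34, the methylated guanosine and the adenosine at the P site, and the paired adenosines of helix 44.
helix 18 loop, 614 to 629 (GL000220v1:109691-109706): ccagcagccgcgGuaa
helix 34, 5′ strand, 1323 to 1344 (GL000220v1:110400-110421): ugguggugCauggcCguucuua
P site of the head, 1638 to 1641 (GL000220v1:110715-110718): gGAa
helix 44, 5′ strand of the decoding region, 1698 to 1711 (GL000220v1:110775-110788): caccgcccgucgcu
helix 44, 3′ strand of the decoding region, 1822 to 1832 (GL000220v1:110899-110909): aaAAgucguaa

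In every profile 1833 of the 1869 nucleotides were scored, from 7 to 1839, and the last 30 were not. A score runs from 0 to 1 and gives the enrichment of reverse transcription stops in the reagent's libraries over the controls. Exactly 92 nucleotides, 5.02%, stood at 1 in each profile, against a median of 5.05% to 5.06% over 10407 transcripts, so the scores are scaled within the molecule. A whole-molecule mean therefore says little on how much of the RNA reacted, and the differences between conditions show where the signal lay.

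Averaged over 18S rRNA, the score was 0.167 for icSHAPE in vitro against 0.174 in vivo, and 0.175 for icLASER in vitro against 0.172 in vivo. Scores of 0.5 or more were taken as reactive, and 11.5% of the scored nucleotides (210) were reactive in icSHAPE in vitro, against 11.0% of positions in all transcripts. The shares were 10.8% (198) against 11.9% in icSHAPE in vivo, 11.0% (202) against 11.0% in icLASER in vitro and 10.7% (197) against 11.1% in icLASER in vivo. The 18S shares were thus close to the background in all 4 profiles. Nucleotides with a score of exactly 0 were rarer than in most transcripts. They made up 25.1% in icSHAPE in vitro, 7.15% in icSHAPE in vivo, 19.9% in icLASER in vitro and 8.46% in icLASER in vivo. The medians over transcripts were 61.2%, 40.0%, 44.2% and 43.96%. This was not particular to 18S. In the same order the shares were 32.24%, 10.73%, 26.92% and 18.97% in the 28S rRNA. In the mitochondrial small subunit rRNA MT-RNR1 they were 14.05%, 14.16%, 15.90% and 5.447%, below 18S in all but icSHAPE in vivo.

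The depth behind a score is unknown, since the profiles hold no counts, but the RPKM of the row differed between conditions. It was 18459 in vitro and 1484 in vivo with icSHAPE, a ratio of 12.4, and 17758 in vitro and 1257 in vivo with icLASER, a ratio of 14.1. Over the 10589 transcripts in all 4 profiles the median log2 change in vivo was 0.13 for icSHAPE and 0.16 for icLASER, while 18S stood at -3.64 and -3.82. The libraries were made from polyadenylated RNA, and the 5 transcripts with the RPKM pattern closest to 18S over the 4 profiles were the U1 snRNA genes or copies RNVU1-28, RNVU1-2A, RNVU1-18 and RNU1-28P and the U8 snoRNA SNORD118, at Euclidean distances of 0.184 to 0.446 in centred log2 RPKM. The 28S rRNA was lower in vivo by ratios of 4.82 and 3.26 and the mitochondrial small subunit rRNA MT-RNR1 by 1.99 and 2.74. All in vivo scores of 18S thus come from a row of lower RPKM than their in vitro counterparts, and the part of this in the differences below was not tested. RPKM is relative to the reads of a library, so less 18S and more of other RNA cannot be told apart.

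Single nucleotides moved in both directions in about equal number. With icSHAPE 181 nucleotides, 9.87%, were higher in vivo by at least 0.25, against a background of 12.4% of positions in all transcripts, and 183 (9.98%) were lower by as much, against 9.10%. With icLASER 186 nucleotides (10.1%) were higher, against a background of 10.0%, and 204 (11.1%) were lower, against 9.70%. The share of nucleotides that changed was thus near that of other transcripts. What stood out was their grouping along the molecule: the means of 25 nt windows of the difference had an SD of 0.127 for icSHAPE and 0.153 for icLASER, larger than in 91.5% and 97.6% of 10407 transcripts. The 28S rRNA had SDs of 0.129 and 0.143, and MT-RNR1 of 0.0837 and 0.133.

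The domains differed in direction. In the 5′ domain (1 to 662), the body of the subunit, the mean score was lower in vivo with both reagents, at 0.155 against 0.206 in vitro with icSHAPE and 0.160 against 0.187 with icLASER. In the central domain (663 to 1201) it was higher in vivo with both, at 0.184 against 0.137 with icSHAPE and 0.228 against 0.155 with icLASER. The 3′ minor domain (1698 to 1869, of which 142 nt were scored) was lower in vivo with both, at 0.0943 against 0.182 with icSHAPE and 0.1003 against 0.171 with icLASER. The helix 44 domain thus had the lowest in vivo mean of the 4 domains with each reagent.

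The 3′ major domain (1202 to 1697), the head, was the domain where the reagents went opposite ways. Its mean icSHAPE score was 0.210 in vivo against 0.144 in vitro, a difference of 0.0659, and its mean icLASER score was 0.146 in vivo against 0.181 in vitro, a difference of -0.0352. The number of reactive nucleotides followed the means, with 70 in vivo against 47 in vitro for icSHAPE and 39 against 59 for icLASER. These were 14.1% against 9.48% and 7.86% against 11.9% of the scored nucleotides of the domain. In the 5′ domain the reactive nucleotides numbered 62 (9.45%) in vivo against 98 (14.9%) in vitro with icSHAPE. With icLASER they numbered 64 (9.76%) against 76 (11.6%). In the same order the central domain had 59 (10.9%) against 46 (8.53%) and 84 (15.6%) against 51 (9.46%). The 3′ minor domain had 7 (4.93%) against 19 (13.4%) and 10 (7.04%) against 16 (11.3%). Over all transcripts the shares in vivo and in vitro were 11.9% and 11.0% with icSHAPE and 11.1% and 11.0% with icLASER.

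The nucleotides of each domain varied widely, and the median differences were smaller in size than the mean differences. Within the domains the SD of the difference between nucleotides was between 0.219 and 0.311, and the median difference stayed between -0.008 and 0.021. In the central domain 352 nucleotides were higher and 158 lower in vivo with icSHAPE, and 328 were higher and 199 lower with icLASER. In the 3′ minor domain 54 were higher and 74 lower with icSHAPE, and 54 were higher and 72 lower with icLASER.

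The bases that carried the signal depended on the reagent. In icLASER in vitro, 90.6% of the 202 reactive nucleotides were A or G, against 51.8% of the scored ones, and guanosine alone made up 69.3%. In vivo A or G made up 64.5% of the 197 reactive nucleotides, guanosine 47.7%, uridine 20.3% and cytidine 15.2%. The number of reactive pyrimidines in icLASER was thus 70 in vivo against 19 in vitro. They lay in each domain in vivo, with 23 in the 5′ domain, 33 in the central domain, 11 in the 3′ major domain and 3 in the 3′ minor domain, where none was reactive in vitro.

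Guanosines averaged an icLASER score of 0.326 in vitro and 0.240 in vivo, and uridines 0.0978 in vitro and 0.160 in vivo. The mean at guanosine differed with the base that followed, and in vitro it was 0.538 before A and 0.501 before U but 0.192 before C and 0.176 before G. In vivo the same means were 0.393, 0.303, 0.156 and 0.156. With A and G alone, the icLASER difference of the central domain was 0.0196 in place of 0.0733, so most of the higher in vivo mean there lay at pyrimidines.

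In icSHAPE, A or U made up 65.2% of the 210 reactive nucleotides in vitro and 55.1% of the 198 in vivo, against 43.8% of the scored ones. Read by the nucleotide that follows the listed one, A or U made up 85.2% in vitro and 80.8% in vivo, a shift that the values do not settle. Sites below are given at the listed positions.

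Nucleotides reactive to both reagents were a minority of each list, but a larger share of it than of all scored nucleotides. In vitro 83 nucleotides were reactive to both, which is 39.5% of the icSHAPE list and 41.1% of the icLASER list. In vivo 73 were, which is 36.9% and 37.1%. Of all 1833 scored nucleotides, 11.0% were reactive to icLASER in vitro and 10.7% in vivo, and 11.5% and 10.8% to icSHAPE. Across the 1833 nucleotides the Pearson r between icSHAPE and icLASER was 0.466 in vitro and 0.472 in vivo (Spearman's rho 0.451 and 0.593), while the median r over 10407 transcripts was 0.381 and 0.382. The profiles of the 2 reagents share no control libraries, though they share the sequence and the scaling, and the nucleotides are not independent. The in vivo and in vitro profiles of 1 reagent share their controls, and no correlation is given between them.

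The changes between conditions were more alike between the reagents in 18S than in most transcripts. Across nucleotides the r between the icSHAPE and icLASER differences was 0.311, against a median of 0.0489 and a 95th percentile of 0.240 over transcripts. It was 0.276 in the 28S rRNA and 0.420 in MT-RNR1. The transcripts were not matched to 18S in RPKM, in which 18S ranked 4 and 52 with icSHAPE in vitro and in vivo. With icLASER it ranked 2 and 56, and the part of RPKM in this likeness was not tested. Within 18S the r between the differences was 0.609 in the 3′ minor domain (142 nt), 0.292 in the 5′ domain, 0.295 in the central domain and 0.262 in the 3′ major domain. With both reagents 63 nucleotides were lower in vivo by at least 0.25 and 49 were higher by as much, whereas 25 moved by as much in opposite directions, 12 of them lower with icSHAPE and 13 higher. Taken singly, 9.98% of the 1833 nucleotides were lower by as much with icSHAPE and 11.1% with icLASER, and 9.87% and 10.1% were higher. The share of such joint changes over all transcripts was not computed.

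The decoding region of helix 44 was lower in vivo, and the difference lay on its 3′ strand. This strand (1822 to 1832) holds A1824 and A1825, the adenosines that inspect the codon and anticodon helix. Its mean icSHAPE score went from 0.386 in vitro to 0.115 in vivo, and its mean icLASER score went from 0.413 in vitro to 0.0486 in vivo. The icLASER difference of -0.365 was lower than that of all but 0.768% of the 1823 windows of 11 nt, and 11 of 11 nucleotides were lower in vivo, as were 10 of 11 with icSHAPE, whose difference of -0.271 had 5.05% of the windows below it.

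The adenosines of the decoding site themselves were low throughout. A1824 had icSHAPE scores of 0.109 in vitro and 0.07 in vivo and icLASER scores of 0.086 and 0.041. A1825 was at 0.163 and 0.294 with icSHAPE and at 0.21 and 0.075 with icLASER. The large differences stood 1 to 7 nucleotides downstream of A1825. G1826 had icSHAPE scores of 0.974 in vitro and 0.309 in vivo and icLASER scores of 1 and 0.293. A1831 had 1 and 0.196 with icSHAPE and 0.962 and 0.023 with icLASER.

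The stretch below (1814 to 1838, GL000220v1:110891-110915) is the 25 nt window with the largest icLASER decrease, and is shown with the nucleotides that scored at least 0.5 in capitals.
icLASER in vitro: gaggaaguaaaaGucGuAAcaaGGu
icLASER in vivo: gaggaaguaaaagucguaacaaggu
icSHAPE in vitro: gaggaaguaaaaGucGUAacaaGGu
icSHAPE in vivo: gaggaaguaaaagucguaacaaggu
With each reagent 6 nucleotides were reactive in vitro, 5 of them shared, and none was reactive in vivo. The mean icLASER score went from 0.325 in vitro to 0.0349 in vivo, and the mean icSHAPE score was 0.303 and 0.0892. At the junction of helices 44 and 45 (1833 to 1839) the mean was 0.457 in vitro and 0.0593 in vivo with icSHAPE and 0.318 and 0.0227 with icLASER. G1836 was at 0.984 and 0.188 with icSHAPE and at 1 and 0.156 with icLASER.

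These sites lie near the end of the scored stretch, and low in vivo scores were seen at both ends. The last 50 scored nucleotides had an icSHAPE mean of 0.0551 in vivo against 0.173 in vitro and an icLASER mean of 0.0212 against 0.168. The first 50 scored nucleotides had 0.0085 against 0.0620 with icSHAPE and 0.0279 against 0.203 with icLASER. Whether a position near an end plays a part in the decrease at helix 44 was not tested. Without those 100 nucleotides the difference of the 3′ minor domain was -0.0710 for icSHAPE and -0.0291 for icLASER, and that of the 5′ domain was -0.0502 and -0.0149.

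The 5′ strand of the same region (1698 to 1711) changed less in its mean, from 0.105 in vitro to 0.0411 in vivo with icSHAPE and from 0.139 to 0.131 with icLASER. It held opposite changes in icLASER. C1698, its first nucleotide, was at 0.025 in vitro and 1 in vivo, while G1706 was at 1 in vitro and 0.326 in vivo. A1697, the last nucleotide of helix 28, also went from 0.046 to 1 with icLASER, whereas icSHAPE gave it 0.029 and 0.016.

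The part of helix 44 next to this strand was lower in vivo with both reagents, and each reagent's list of largest decreases held an overlapping window there. From 1709 to 1733 the mean icSHAPE score went from 0.372 in vitro to 0.0795 in vivo, and from 1713 to 1737 the mean icLASER score was 0.369 and 0.0918. Within it U1729 had the largest icSHAPE decrease of any nucleotide, from 1 to 0.034.

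**Figure D1:**
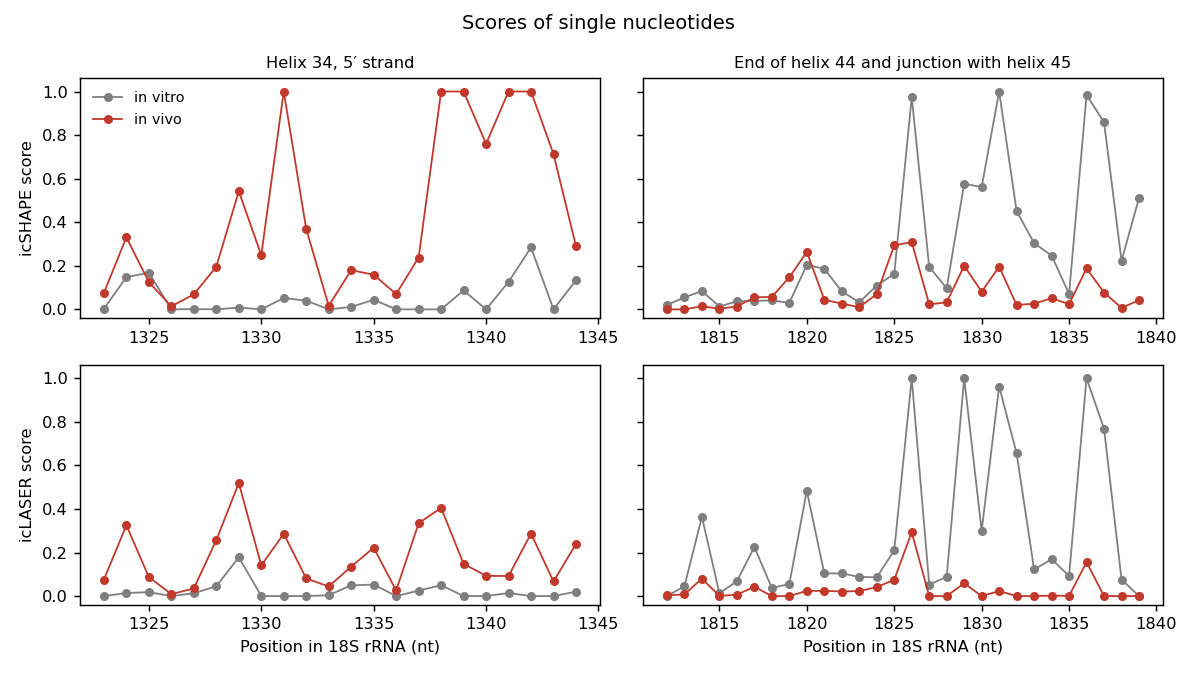
Score of each nucleotide (y axis, 0 to 1) by its position in 18S rRNA (x axis) in the 5′ strand of helix 34 (left) and at the end of helix 44 with the junction to helix 45 (right), for icSHAPE (top) and icLASER (bottom), in vitro in grey and in vivo in red. In helix 34 the in vivo scores are the higher ones, up to 1 with icSHAPE, and at the end of helix 44 the in vitro scores are the higher ones.

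Helix 34 of the head, which lines the A site, showed the opposite. Its 5′ strand (1323 to 1344) had a mean icSHAPE score of 0.0502 in vitro and 0.427 in vivo, higher in 21 of 22 nucleotides, and a mean icLASER score of 0.0220 and 0.178, higher in 22 of 22. The icSHAPE difference of 0.377 was above that of 99.3% of the 1812 windows of 22 nt. C1331, a contact of the A-site tRNA, had icSHAPE scores of 0.052 in vitro and 1 in vivo and icLASER scores of 0 and 0.286. The acetylated C1337 was at 0 and 0.238 with icSHAPE and at 0.025 and 0.334 with icLASER, and the next nucleotide, G1338, was at 0 and 1 with icSHAPE and at 0.05 and 0.405 with icLASER.

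The 25 nt window with the largest icSHAPE increase covered this strand (1324 to 1348, GL000220v1:110401-110425), and it is shown with reactive nucleotides in capitals.
icSHAPE in vitro: gguggugcauggccguucuuaguug
icSHAPE in vivo: gguggUgCauggccGUUCUUaguuG
icLASER in vitro: gguggugcauggccguucuuaguug
icLASER in vivo: gguggUgcauggccguucuuaGuug
No nucleotide was reactive in vitro with either reagent, and 9 were in vivo with icSHAPE and 2 with icLASER. The partner strand of helix 34 (1483 to 1505) did not share this. Its mean was 0.218 in vitro and 0.142 in vivo with icSHAPE and 0.282 and 0.113 with icLASER, so it was lower in vivo with both.

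Just before helix 34, from 1299 to 1323, lay the third largest icLASER increase, from a mean of 0.0357 in vitro to 0.482 in vivo, and 25 of 25 nucleotides were higher. In icSHAPE the same window was at 0.229 and 0.367. Together with helix 34 it formed a continuous stretch of the head, 1290 to 1364, that was higher in vivo with at least 1 reagent.

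The other contacts of the head with tRNA differed little or in 1 reagent. In the P site G1638 had icLASER scores of 0.665 in vitro and 1 in vivo, the methylated G1639 stayed at 0.07 and 0.067, and A1640 was at 0.508 and 0.235. Their icSHAPE scores were 0.112 and 0.208, 0.014 and 0.049, and 0.387 and 0.499. In the loop of helix 31 (1247 to 1252), next to the P site, the mean icSHAPE score went from 0.562 in vitro to 0.752 in vivo and the mean icLASER score was 0.371 and 0.3502.

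U1248 in that loop carries the most elaborate modification of 18S rRNA, a methylated aminocarboxypropyl pseudouridine, and stood at 1 in all 4 profiles. Its neighbour C1247 had icSHAPE scores of 0.208 in vitro and 1 in vivo and icLASER scores of 0.369 and 0.249. The methylated A1832 of helix 44 was at 0.451 in vitro and 0.02 in vivo with icSHAPE and at 0.655 and 0 with icLASER. Those looked at in helix 45, at C1842, A1850 and A1851, lie in the unscored end. Other modifications of 18S rRNA were not looked at.

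The loop of helix 18 (614 to 629), the third wall of the decoding centre, was low in most nucleotides. Its mean was 0.078 in vitro and 0.102 in vivo with icSHAPE and 0.0641 and 0.133 with icLASER. G626, the guanosine that contacts the decoding minor groove, was the exception in icLASER, with 0.237 in vitro and 1 in vivo, while its icSHAPE scores were 0.13 and 0.207. A628 was at 0.403 in vitro and 1 in vivo with icSHAPE. The loop bases G620 to C622, which complement 601 to 603 in all 3 positions of the helix 18 pseudoknot, ranged from 0 to 0.191 in all 4 profiles.

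In the platform, the loop of helix 23 (958 to 965) held nucleotides reactive to both reagents in both conditions. Its mean was 0.419 in vitro and 0.459 in vivo with icSHAPE and 0.3504 and 0.586 with icLASER, and U960 and G961 were above 0.5 in all 4 profiles. The loop of helix 24 (1055 to 1062) had means of 0.205 and 0.189 with icSHAPE and 0.290 and 0.177 with icLASER, where G1059 was the highest at 1 in vitro and 0.741 in vivo. Helix 27 (1166 to 1193), which packs against helix 44, had means of 0.0979 and 0.169 with icSHAPE and 0.0586 and 0.0755 with icLASER.

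The strands of the central pseudoknot and of helix 28, the neck, went different ways. The 5′ side of helix 1 and the pseudoknot (9 to 20) had a mean icLASER score of 0.313 in vitro and 0.0293 in vivo, lower in 12 of 12 nucleotides, and an icSHAPE mean of 0.0717 and 0.00675. The opposing pseudoknot strand (1197 to 1199) had icSHAPE means of 0.022 in vitro and 0.368 in vivo, of which A1199 at 0.05 and 0.832 was the main part, and icLASER means of 0.132 and 0.174. The 5′ strand of helix 28 (1202 to 1214) was higher in vivo in 13 of 13 nucleotides with icSHAPE, with means of 0.0293 and 0.154, and had icLASER means of 0.159 and 0.256. Its 3′ strand (1685 to 1697) had icSHAPE means of 0.308 and 0.138 and icLASER means of 0.171 and 0.189.

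The largest decrease of any 25 nt window lay outside the tRNA sites, between the end of helix 18 and the end of the 5′ domain (638 to 662, GL000220v1:109715-109739). It is shown because the 2 reagents differed there, with reactive nucleotides in capitals.
icSHAPE in vitro: CcAAUagCGUAUAUuAaAGuugcug
icSHAPE in vivo: ccaauagcgUauauuaaaguugcug
icLASER in vitro: ccaauagcGuauauuaaaGuugcug
icLASER in vivo: ccaauagcguaUAUuaaaGuugcug
The mean icSHAPE score went from 0.627 in vitro to 0.131 in vivo, lower in 25 of 25 nucleotides, and the mean icLASER score was 0.203 and 0.265. C638 had icSHAPE scores of 1 and 0.096 and U642 of 1 and 0.062, both among the 5 largest icSHAPE decreases. The next largest window of icSHAPE (147 to 171) had a mean of 0.591 in vitro and 0.207 in vivo, with icLASER means of 0.259 and 0.180. It included A150, at 0.979 and 0.091 with icSHAPE. U81, also in the 5′ domain, was the only nucleotide among the 5 largest decreases of both reagents, at 1 and 0.095 with icSHAPE and 1 and 0.067 with icLASER.

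The largest icLASER increases lay in the central domain, in the part that holds the eukaryotic expansion segment 6. From 778 to 860 a run of 83 nucleotides had a mean icLASER score of 0.160 in vitro and 0.497 in vivo, with 37 reactive in vivo against 8 in vitro, and 14 of its 38 pyrimidines were reactive in vivo against 0 in vitro. The icSHAPE difference over the same run was 0.0108. The pair of windows with the largest increases, 792 to 816 (GL000220v1:109869-109893) and 820 to 844 (GL000220v1:109897-109921), are shown with reactive nucleotides in capitals because they display the reactive pyrimidines.
icLASER in vitro, 792: cgaagcGuuuacuuuGaaaaAauua
icLASER in vivo, 792: cGaAgCGuUUACUUUGAAAaAAUUa
icLASER in vitro, 820: uGuucaaagcaggcccgagccgccu
icLASER in vivo, 820: uGUUcAAAgcagGCccGAGCCGccu
The first had a mean icLASER score of 0.244 in vitro and 0.738 in vivo and the second of 0.101 and 0.634. Their icSHAPE means were 0.213 and 0.163 for the first and 0.0826 and 0.206 for the second.

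Further windows with large increases were rich in G and C. The icSHAPE increases at 727 to 751 (mean 0.0226 in vitro and 0.258 in vivo) and 1413 to 1437 (0.0356 and 0.320) had a GC content of 80% and 84%, against 56.1% for the whole molecule. Of the 37 bins of 50 nt, the 5 with a GC content of at least 70% were all higher in vivo with both reagents, by 0.0267 to 0.151 with icSHAPE and 0.0816 to 0.212 with icLASER. Of the other 32 bins, 16 were higher with icSHAPE and 12 with icLASER. Across the bins the Pearson r between GC content and the difference was 0.229 for icSHAPE and 0.268 for icLASER, a description over neighbouring bins of 1 molecule.

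The strongest single changes were limited by the scale. From 0 in vitro to 1 in vivo went 9 nucleotides with icSHAPE, the first 5 by position being C748, G1014, G1338, A1402 and C1434, and 6 of the 9 lay in the 3′ major domain. With icLASER 17 did, the first being U197, C400, G719, G721 and G731. Of these 17, 12 lay in the central domain and 14 were pyrimidines. Pyrimidines made up 48.2% of the scored nucleotides, and the central and 3′ major domains held 539 and 496 of the 1833. In icLASER in vitro the mean score was lowest at cytidine (0.0576) and uridine (0.0978). The nucleotides at 0 in vitro were not counted by base or domain, nor such changes over all transcripts, so these counts have no background. Of the largest icLASER decreases, G1617 went from 1 to 0.023, G33 from 1 to 0.051, G1829 from 1 to 0.059 and A1831 from 0.962 to 0.023. The third icLASER window with a large decrease, 1651 to 1675 in the head, had a mean of 0.343 in vitro and 0.075 in vivo, and its icSHAPE means were 0.189 and 0.0684.

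The scores were last set beside the pairing that the sequence predicts on its own, with RNAplfold and no knowledge of the ribosome. The 665 scored nucleotides with a predicted unpaired probability of at least 0.5 had a mean icSHAPE score of 0.261 in vitro, against 0.113 in the other 1168, and 0.227 against 0.143 in vivo. With icLASER the means were 0.207 against 0.156 in vitro and 0.175 against 0.170 in vivo. Over the whole molecule the gap between predicted unpaired and paired nucleotides was thus wider in vitro than in vivo with each reagent, and wider with icSHAPE than with icLASER. The 3′ minor domain differed from this, with an icSHAPE gap of 0.0985 in vitro and 0.0984 in vivo and an icLASER gap of 0.0265 in vitro and 0.0651 in vivo.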

How the data were processed

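Per the labels and the study's methods, K562 cells or refolded K562 RNA were probed, biotinylated RNA was enriched and polyadenylated RNA was sequenced. The submitters' processing notes name Trimmomatic, Bowtie2 and GRCh38. The authors mapped reads to the Ensembl release 88 transcriptome and deposited, for each reagent and condition, 1 pooled profile holding the RPKM of each transcript and an enrichment score for each nucleotide, normalized to run from 0 to 1. Read counts per nucleotide were not used here, so the depth and counting precision are unknown.

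From these, 18S means, differences, windows and correlations were computed with Python 3.11.15, numpy 2.4.6, pandas 2.3.3 and scipy 1.17.1, drawn with matplotlib 3.10.9, and tested on simulated data. RNAplfold 2.7.2 (window 200, span 150) gave predicted pairing, an addition made after seeing the data. Transcript names came from GENCODE release 44. Members, sites and lists were chosen with earlier results of these data known. Named were 18S, each functional site, the 5 nucleotides and 3 windows of 25 nt with the largest change in each direction per reagent (ties by position), 28S, MT-RNR1 and the 5 transcripts closest in RPKM pattern. Other nucleotides and stretches named, and the GC limit of the bins, were chosen after values were seen. No test was run, since each condition has 1 profile. Of the cell type markers, 1 gene is not reported here.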

Additional observations from a re-analysis of the deposited data

Results flagged for a closer look

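Several results of 18S rRNA had opposite directions with icSHAPE and icLASER in the same contrast of in vivo minus in vitro, with 1 pooled profile behind each value, and the difference between the reagents was not tested. The whole molecule differed by 0.00696 with icSHAPE and by -0.00311 with icLASER. This opposition was not kept under any alternative tried. As medians over nucleotides the values were 0.003 and 0. With each profile divided by its mean over all transcripts the values were -0.0214 and -0.0019. With A and G alone they were -0.00832 and -0.0631. The 3′ major domain, the head, differed by 0.0659 and -0.0352. At functional sites the values were 0.191 and -0.0208 in the loop of helix 31 and 0.0323 and -0.0328 at the P-site nucleotides of the head. They were -0.170 and 0.0180 on the 3′ strand of helix 28. Each of these site oppositions was lost under at least 1 alternative. In the loop of helix 31 the median was 0 with icSHAPE and -0.038 with icLASER. With scores moved to the next nucleotide upstream the P-site values were -0.085 and -0.114. On the 3′ strand of helix 28 the icLASER value was -0.0554 with scores moved downstream and -0.016 as a median, with icSHAPE still negative. Among the windows, 638 to 662 had -0.495 and 0.0618, 1413 to 1437 had 0.284 and -0.0135, and 792 to 816 had -0.0499 and 0.493.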

How the results depend on the processing

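All 48 alternatives for the domain differences kept their sign, as did the 24 for the named windows. Of the 120 alternatives for the functional sites 9 changed sign, none of them for a difference of at least 0.1, and 3 fell to 0, among them the median of the icSHAPE difference of 0.191 in the loop of helix 31. A score of at least 0.3 gave reactive shares of 18.8% and 18.4% for icSHAPE in vitro and in vivo and 18.2% and 16.7% for icLASER, and a score of at least 0.8 gave 6.44%, 6.11%, 6.98% and 6.49%. Division of each profile by its mean over all transcripts moved the whole-molecule icSHAPE difference to -0.0214. With the median, the 5′ domain of icSHAPE moved to -0.002 and the central domain of icLASER to 0.019. With A and G alone the icLASER differences were -0.0631 for the whole molecule, -0.0977, 0.0196, -0.0863 and -0.152 for the 5′, central, 3′ major and 3′ minor domains, and r was 0.573 in vitro and 0.509 in vivo. Spearman's rho in vivo was 0.593. Moved to the next nucleotide downstream, A or U made up 85.2% and 80.8% of reactive icSHAPE nucleotides in vitro and in vivo and A or G 63.4% and 53.3% of icLASER ones. Moved upstream these were 53.8%, 46.5%, 50.5% and 48.7%. At a score of at least 0.3, A or G made up 83.5% in icLASER in vitro.

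No paired analysis was possible because the profiles pool the replicates, and for the same reason no replicate could be left out. The spread between replicates and the depth behind each score, which limit every difference given here, are therefore unknown, and the scores are scaled within the molecule, so a lower score in 1 region can go with a higher score in another. The RPKM of 18S was lower in vivo. The scored stretch ends before helix 45 and both of its ends had low in vivo scores. Sites were placed by sequence motifs, and the boundaries of domains were moved by 20 nt and the ends left out (chosen after seeing the data) without a change of direction.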
